A study of Mus musculus with 14 samples.

Results

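Interferon response genes are the genes that cells switch on when they receive type I or type II interferon. The 36 described here were chosen by symbol from the deposited table: 3 RNA sensors, 5 transcription factors, 2 genes of the ISG15 system, 3 Ifit genes, 5 genes of the OAS family, 6 other antiviral effectors, 5 guanylate-binding proteins, 2 immunity-related GTPases, 3 genes of antigen processing and 2 chemokines. They are 36 of the 54532 genes in the table, and all 36 passed the filter on low counts, as did 17874 genes in all. Liver RNA of C57BL/6J mice, a common inbred strain, was sequenced at 52 weeks of age in 14 libraries. The product of Abcb11 is a canalicular transporter that pumps bile salts out of hepatocytes, and the labels give the knockout as Abcb11-/- without saying which part of the gene is missing. The groups are named as in the labels: WTF is liver of wild-type females (n = 2, numbered 2 and 3, with a number 1 not analysed here), NTF is non-tumour liver tissue of Abcb11-/- females (n = 3) and Abcb11F is tumour tissue of Abcb11-/- females (n = 3). WTM is liver of wild-type males (n = 3) and Abcb11M is liver of Abcb11-/- males (n = 3), for which the labels do not mention tumours. The design text gives 3 mice for each group, and whether NTF and Abcb11F tissue came from the same animals is not stated.

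In F knockout liver the members that passed the test were all lower than in wild type: Irf9, Stat2 and Gbp7 in non-tumour tissue, and Irf9, Gbp7, Gbp10 and Mx2 in tumour tissue. In M knockout liver those that passed with TMM scaling were all higher: Ifih1, Isg15, Ifit1, Ifit3, Oasl1, Mx1 and Rsad2. With RLE or upper-quartile scaling, another filter or none, or DESeq2, Stat2 and Irf9 were called lower in M as well. In the fit of 14 libraries with TMM scaling neither was called, nor was either without WTM 3, a library that stood apart. Of 36 members 3, 4 and 7 passed in NTF, Abcb11F and Abcb11M, beside 4.16%, 9.61% and 20.6% of all genes. In Abcb11F and Abcb11M the share was near that of all genes, of which 14.3% were higher and 6.32% lower in Abcb11M. In NTF 0 members passed without WTF 2, WTF 3, NTF 1 or NTF 3. In Abcb11F 0 passed without WTF 3 or Abcb11F 3. In Abcb11M 3 to 14 passed with 1 library left out. The 14 (38.9%, all higher) were those without WTM 3, beside 23% of all genes.

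Interferons bind receptors on the cell surface and activate kinases that phosphorylate STAT proteins. After type I interferon, STAT2 and IRF9 act in a complex that binds the interferon-stimulated response element, whereas the response to type II interferon runs mainly through the gamma-activated site. In liver, hepatocytes, macrophages and lymphocytes all respond, and bulk RNA cannot tell fewer cells of a type from less RNA per cell.

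The letters of these elements were looked for in the 250 bases before the annotated start sites of RefSeq promoters (build GRCm38.p6), and the windows below are shown because their genes passed a test and hold the first motif. The response element was searched as GAAA, NN and GAAA in 1 run (on the other strand TTTC, NN and TTTC), and the gamma-activated site as TTC, NNN and GAA, which reads alike on both strands, with overlaps between the motifs allowed. Of the 36 members, 29 had a promoter in the table, and Dhx58, Usp18, Oas2, Mx1, Mx2, Gbp6 and Gbp10 had none. The first motif stood before 14 of the 29 (48.3%), against 3.46% of 27025 genes, and the second before 9 of the 29 (31.0%), against 8.13% of genes. The members were chosen as known interferon response genes, so these shares describe the list and are not a result of these libraries. Matches are in capitals in the 6 windows, each read 5′ to 3′ along the gene.
Gbp7, chr3:142530086-142530335, plus strand: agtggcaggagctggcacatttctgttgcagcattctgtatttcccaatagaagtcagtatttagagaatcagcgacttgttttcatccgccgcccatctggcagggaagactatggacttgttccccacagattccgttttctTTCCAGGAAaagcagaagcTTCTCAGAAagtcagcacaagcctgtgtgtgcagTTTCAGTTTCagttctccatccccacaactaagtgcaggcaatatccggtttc
Ifit1, chr19:34640639-34640888, plus strand: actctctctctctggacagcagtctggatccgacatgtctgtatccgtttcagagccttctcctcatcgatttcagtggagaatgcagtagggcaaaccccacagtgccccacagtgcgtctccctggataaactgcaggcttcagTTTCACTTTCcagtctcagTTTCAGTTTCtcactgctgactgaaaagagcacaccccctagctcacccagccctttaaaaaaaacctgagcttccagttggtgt
Ifit3, chr19:34583279-34583528, plus strand: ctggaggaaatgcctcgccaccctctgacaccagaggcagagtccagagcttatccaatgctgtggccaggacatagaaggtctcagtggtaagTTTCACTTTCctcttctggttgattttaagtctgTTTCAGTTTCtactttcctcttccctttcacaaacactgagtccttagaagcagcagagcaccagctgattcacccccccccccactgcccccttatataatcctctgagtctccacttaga
Isg15, chr4:156200819-156201068, minus strand: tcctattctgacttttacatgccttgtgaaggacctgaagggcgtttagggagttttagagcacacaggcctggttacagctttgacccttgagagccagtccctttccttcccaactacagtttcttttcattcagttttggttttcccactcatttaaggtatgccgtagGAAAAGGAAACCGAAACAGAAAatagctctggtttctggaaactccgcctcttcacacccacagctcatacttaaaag
Rsad2, chr12:26456453-26456702, minus strand: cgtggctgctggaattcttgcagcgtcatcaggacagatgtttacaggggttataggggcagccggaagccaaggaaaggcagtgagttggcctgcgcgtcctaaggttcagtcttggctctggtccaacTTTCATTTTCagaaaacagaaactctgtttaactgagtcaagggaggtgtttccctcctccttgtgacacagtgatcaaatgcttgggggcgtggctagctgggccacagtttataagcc
Stat2, chr10:128270248-128270497, plus strand: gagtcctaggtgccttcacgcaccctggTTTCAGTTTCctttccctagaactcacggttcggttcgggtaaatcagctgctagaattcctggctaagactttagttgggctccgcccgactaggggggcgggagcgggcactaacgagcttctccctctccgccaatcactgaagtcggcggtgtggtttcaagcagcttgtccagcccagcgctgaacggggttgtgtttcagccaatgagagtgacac
Gbp7 held 1 match to the first motif and 2 to the second. Isg15 held 3 overlapping matches to the first, Ifit1 and Ifit3 held 2 each, and Rsad2 and Stat2 held 1 each. The windows of Ifih1, Irf9 and Oasl1, which also passed a test, held neither motif. A match is a run of letters and not a shown binding site.

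Library totals ran from 14745140 to 19480538 counts. Abcb11 itself stood at 270.2 and 488 CPM (counts scaled to library size by TMM) in WTF and 307, 322 and 298 in WTM, against 21.1, 35.9 and 17.9 in NTF, 34.3, 23.2 and 18 in Abcb11F and 76.5, 62.1 and 104 in Abcb11M, below wild type in every knockout library. All 7 hepatocyte markers were detected in every library. The library WTM 3 stood apart from WTM 1 and WTM 2. The summed level of 4 B cell markers was 2.72, 1.72 and 411 CPM in WTM 1, 2 and 3, and that of 11 T and NK cell markers was 4.92, 7.80 and 125. Not all of the 11 rose in WTM 3: Cd4 was at 0.129, 0 and 28.9 CPM, but Ncr1 at 0, 0.358 and 0.202 and Gzmb at 0, 2.08 and 2.07. The summed level of the hepatocyte markers was 52160, 44230 and 24410 CPM. Among B cell markers, Cd79a and Cd79b were at 0 in WTM 1 and Cd79b was at 0 in WTM 2. WTM 3 was the highest WTM library in 31 of 36 members, and at least 2-fold above both others in 13 of 36, against 20.8% of all genes tested. Calls, counts and medians of the members that use WTM are therefore given with and without it. The comparisons among F groups come from the same fit, so WTM 3 also enters their estimate of the spread. For these, only the fits of the compared groups alone leave it out. The part of lymphocytes in it was not tested.

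**Figure D1:**
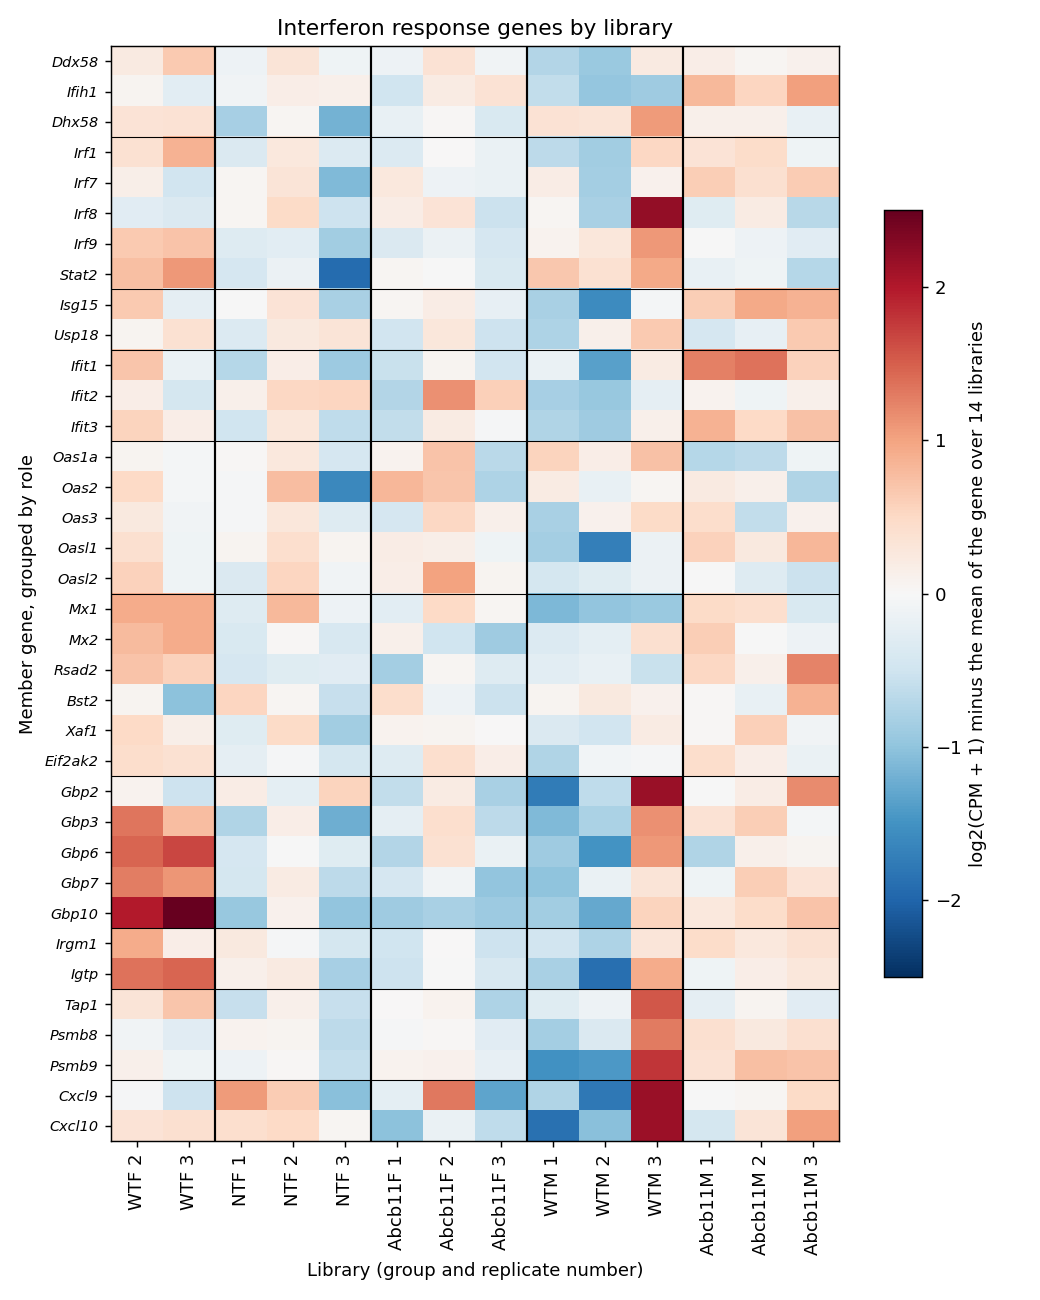
Heat map of the 36 members (vertical axis, grouped by role) in the 14 libraries (horizontal axis, by group), with colour giving log2(CPM + 1) minus the mean of the gene over all libraries. Gbp6, Gbp7 and Gbp10 are highest in the WTF libraries, Gbp3 is highest in WTF 2 and then in WTM 3, and Ifit1 and Ifit3 are high in Abcb11M. WTM 3 differs from WTM 1 and WTM 2 in the lowest rows, and also in Irf8, Gbp2, Gbp3, Gbp6 and Gbp10.

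The sensors recognise viral RNA in the cytoplasm. In the lists of values that follow, libraries are in the order of their numbers, 2 and 3 for WTF and 1 to 3 for the other groups. Ifih1, the sensor MDA5 of long double-stranded RNA, stood at 18.1 and 14.3 CPM in WTF, 16.1, 19.5 and 18.99 in NTF, 11.9, 19.9 and 22.3 in Abcb11F, 10.9, 8.37 and 8.88 in WTM and 31.02, 25.4 and 36.2 in Abcb11M. The Abcb11M libraries were above all others, and the WTM libraries were below all others. Dhx58, the regulator LGP2 and the sensor with the highest mean FPKM (fragments scaled to gene length and library size, as deposited), stood at 15.1 and 15.4 CPM in WTF, 6.19, 12.2 and 4.61 in NTF, 10.2, 11.9 and 8.77 in Abcb11F, 15.3, 14.9 and 25.5 in WTM and 12.9, 12.9 and 10.2 in Abcb11M. Its WTF libraries lay above all NTF and Abcb11F libraries, and its WTM libraries above all Abcb11M libraries. Ddx58, the sensor RIG-I, ranged from 11.4 to 36.04 CPM over the 14 libraries.

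Among the transcription factors, Stat2 and Irf9 are partners in the complex that carries the type I signal. Stat2 stood at 229 and 290.1 CPM in WTF, 101, 123 and 35.3 in NTF, 140.1, 136 and 104 in Abcb11F, 217, 177 and 263 in WTM and 119.8, 127 and 82.1 in Abcb11M. Both WTF and all WTM libraries lay above every knockout library, with NTF 3 the lowest. Irf9 stood at 60.5 and 63.7 CPM in WTF, 30.2, 31.6 and 20.4 in NTF, 29.4, 34.5 and 28.2 in Abcb11F, 40.8, 47.02 and 82.3 in WTM and 38.01, 35.01 and 31.1 in Abcb11M. Again every wild-type library lay above every knockout library. The gene overlaps Rnf31 on the same strand (8475 counts for Rnf31 against 10066 for Irf9 over all libraries), and how shared fragments were assigned is not given in the sources used here. Irf1, Irf7 and Irf8, which bind related elements in the type II, type I and myeloid programs, ranged from 27.4 to 93.3, from 25.7 to 87.2 and from 10.6 to 92.99 CPM. The highest Irf8 value was that of WTM 3, against 20.0 and 10.6 in WTM 1 and 2.

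ISG15 is a ubiquitin-like protein that is joined to other proteins after interferon, and USP18 removes it. Isg15 stood at 17.3 and 9.06 CPM in WTF, 10.7, 13.7 and 5.70 in NTF, 11.1, 12.3 and 9.13 in Abcb11F, 5.69, 2.93 and 10.2 in WTM and 16.8, 21.5 and 20.5 in Abcb11M. The Abcb11M libraries lay above all WTM libraries, while WTF 2 was within the Abcb11M range. Usp18 ranged from 4.40 to 13.5 CPM, and its groups overlapped in every comparison.

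The Ifit genes encode proteins that bind foreign RNA, and the 3 members lie together on chromosome 19 within 99.3 kb. Ifit1 stood at 20.5 and 10.9 CPM in WTF, 7.08, 14 and 6.06 in NTF, 8.10, 13 and 8.62 in Abcb11F, 10.9, 4.22 and 14.3 in WTM and 31.02, 33.2 and 18.8 in Abcb11M. Ifit3 stood at 20.6 and 15.5 CPM in WTF, 9.55, 17.1 and 8.50 in NTF, 8.66, 16.01 and 13.4 in Abcb11F, 7.76, 7.01 and 15.1 in WTM and 26.1, 19.9 and 23.6 in Abcb11M. For both genes all Abcb11M libraries lay above all WTM libraries, and WTF, NTF and Abcb11F overlapped. Of the 100-base stretches of the Ifit3 transcript 31.7% also occur in Ifit3b, so its count is uncertain. Ifit2 ranged from 1.86 to 11.1 CPM, and was also higher in every Abcb11M library than in every WTM library.

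OAS proteins make a small messenger that activates RNase L, and the OAS-like proteins are relatives with other activities. Oasl1, the family member with the highest mean FPKM, stood at 13.9 and 9.49 CPM in WTF, 10.8, 14.1 and 10.8 in NTF, 11.8, 11.4 and 9.48 in Abcb11F, 5.24, 2.43 and 9.13 in WTM and 15.8, 12.3 and 19.1 in Abcb11M. Its Abcb11M libraries lay above all WTM libraries, and WTM 2 was the lowest of the 14. Oas1a stood lower in every Abcb11M library (1.79 to 3.22 CPM) than in every WTM library (4.15 to 6.56 CPM). Of its 100-base stretches 40.9% also occur in Oas1g, so the count is uncertain. Oas2 ranged from 4.02 to 26.3, Oas3 from 0.129 to 1.86 and Oasl2 from 6.502 to 20.98 CPM.

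The other antiviral effectors act on different steps of infection. Mx1 and Mx2 are dynamin-like GTPases that trap viral components, and both are known to carry inactivating changes in many laboratory strains. The deposited table lists Mx2 as a polymorphic pseudogene. Mx1 stood at 9.04 and 8.96 CPM in WTF, 3.20, 8.25 and 3.80 in NTF, 3.40, 6.45 and 4.46 in Abcb11F, 1.42, 1.65 and 1.77 in WTM and 6.32, 6.07 and 3.05 in Abcb11M. The WTM libraries were the lowest of all, and the WTF libraries the highest. Mx2 stood at 16.7 and 18.5 CPM in WTF, 6.82, 9.49 and 6.74 in NTF, 10.2, 6.26 and 4.51 in Abcb11F, 7.05, 7.66 and 12.4 in WTM and 14.6, 9.14 and 8.42 in Abcb11M. Its WTF libraries lay above all other libraries. Rsad2, the radical enzyme viperin, stood at 6.86 and 6.17 CPM in WTF, 2.62, 2.91 and 2.98 in NTF, 1.67, 3.97 and 2.84 in Abcb11F, 3.04, 3.22 and 2.27 in WTM and 5.95, 4.24 and 10.3 in Abcb11M. It was higher in both WTF than in all NTF, Abcb11F and WTM libraries, and higher in all Abcb11M than in all WTM libraries. Bst2, the tether that holds budding virus at the membrane, had the highest mean FPKM of the 36 members (106). It stood at 101 and 46.8 CPM in WTF, 139, 99.5 and 63.5 in NTF, 130.5, 87.7 and 65.5 in Abcb11F, 101, 114 and 103 in WTM and 97.7, 83.8 and 176 in Abcb11M, and its groups overlapped in every comparison. Xaf1, a promoter of apoptosis, ranged from 5.92 to 18.2 CPM. Eif2ak2, the double-stranded RNA kinase PKR, ranged from 6.86 to 16.96 CPM.

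Guanylate-binding proteins are large GTPases that attack vacuoles and membranes of intracellular microbes, mainly after interferon gamma. Gbp7, Gbp3 and Gbp2 lie within 107.7 kb on chromosome 3, and Gbp10 and Gbp6 within 78.0 kb on chromosome 5. Gbp3, with the highest mean FPKM of the 5, stood at 28.1 and 18.6 CPM in WTF, 5.88, 11.9 and 3.98 in NTF, 8.96, 14.4 and 6.39 in Abcb11F, 4.40, 5.65 and 24.4 in WTM and 13.9, 16.7 and 10.2 in Abcb11M. Gbp7 stood at 27.4 and 24.1 CPM in WTF, 7.55, 12.5 and 6.42 in NTF, 7.73, 9.94 and 4.87 in Abcb11F, 4.79, 9.38 and 13.6 in WTM and 9.74, 16.7 and 13.8 in Abcb11M. For both genes the WTF libraries lay above all NTF and Abcb11F libraries. Gbp10 stood at 8.67 and 13.8 CPM in WTF, 0.262, 1.60 and 0.226 in NTF, 0.309, 0.382 and 0.304 in Abcb11F, 0.323, 0 and 2.57 in WTM and 1.93, 2.34 and 3.00 in Abcb11M. These values rest on 139 and 287 counts in WTF, and on 5 to 8 counts in 6 of the 9 other libraries outside Abcb11M, on 0 in WTM 2, on 27 in NTF 2 and on 51 in WTM 3. Abcb11M held 26, 32 and 53 counts. Of the 100-base stretches of Gbp10 56.1% also occur in Gbp6, and 30.9% of those of Gbp6 in Gbp10, so fragments may be exchanged between them. Gbp6 stood at 12.8 and 15.1 CPM in WTF, above the 0.787 to 9.69 CPM of the other 12 libraries. Gbp2 ranged from 0 in WTM 1 to 13.9 CPM in WTM 3. The summed level of the 5 genes was 73.1 to 79.5 CPM in WTF, 17.6 to 31.9 in NTF, 15.97 to 33.2 in Abcb11F, 11.3 to 64.2 in WTM and 29.9 to 43.1 in Abcb11M.

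Some immunity-related GTPases coat the vacuoles of parasites, and others regulate those that do. Igtp, also known as Irgm3, stood at 62.5 and 67.02 CPM in WTF, 25.97, 27.9 and 12.98 in NTF, 16.2, 23.5 and 17.8 in Abcb11F, 13.2, 5.73 and 46.2 in WTM and 21.9, 26.7 and 29.2 in Abcb11M. The WTF libraries were above all others, and WTM 3 was the next highest. Irgm1, which regulates the family and autophagy, ranged from 19.2 to 63.8 CPM. Igtp overlaps Irgm2 on the same strand, and how fragments in the overlap were assigned is not given in the sources used here.

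The antigen processing members lie within 19.5 kb on chromosome 17: Psmb8 and Psmb9 encode subunits of the immunoproteasome, and Tap1 a chain of the peptide transporter. Psmb8, with the highest mean FPKM of the 3, stood at 27.7 and 24 CPM in WTF, 31.3, 30.9 and 18.4 in NTF, 28.8, 29.97 and 24.1 in Abcb11F, 15.8, 22.6 and 74.02 in WTM and 38.9, 35.01 and 39.2 in Abcb11M. Psmb9 stood at 8.09, 8.52 and 88.5 CPM in WTM and at 32.0 to 42.3 in Abcb11M. WTM 3 was the highest of all 14 libraries for both genes, and WTM 1 and WTM 2 were below all Abcb11M libraries. Tap1 ranged from 17.3 to 91.5 CPM, the highest again in WTM 3. It shares sequence with Psmb9 on the opposite strand, and whether strand was used in counting is not given in the sources used here.

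Cxcl9 and Cxcl10 attract T cells and NK cells. Cxcl9 stood at 8.36 and 5.69 CPM in WTF, 19.1, 13.8 and 3.66 in NTF, 7.05, 22.8 and 2.84 in Abcb11F, 4.72, 1.79 and 42.03 in WTM and 8.48, 8.84 and 12.4 in Abcb11M. WTM 3 was the highest, and the next were Abcb11F 2 and NTF 1. Cxcl10 stood at 0, 0.787 and 15.1 CPM in WTM, against 0.804 to 6.45 CPM in the other 11 libraries, and its Abcb11F libraries lay below all WTF and NTF libraries. In both F knockout groups the library numbered 2 was the highest of its group in 28 of 36 members.

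**Figure D2:**
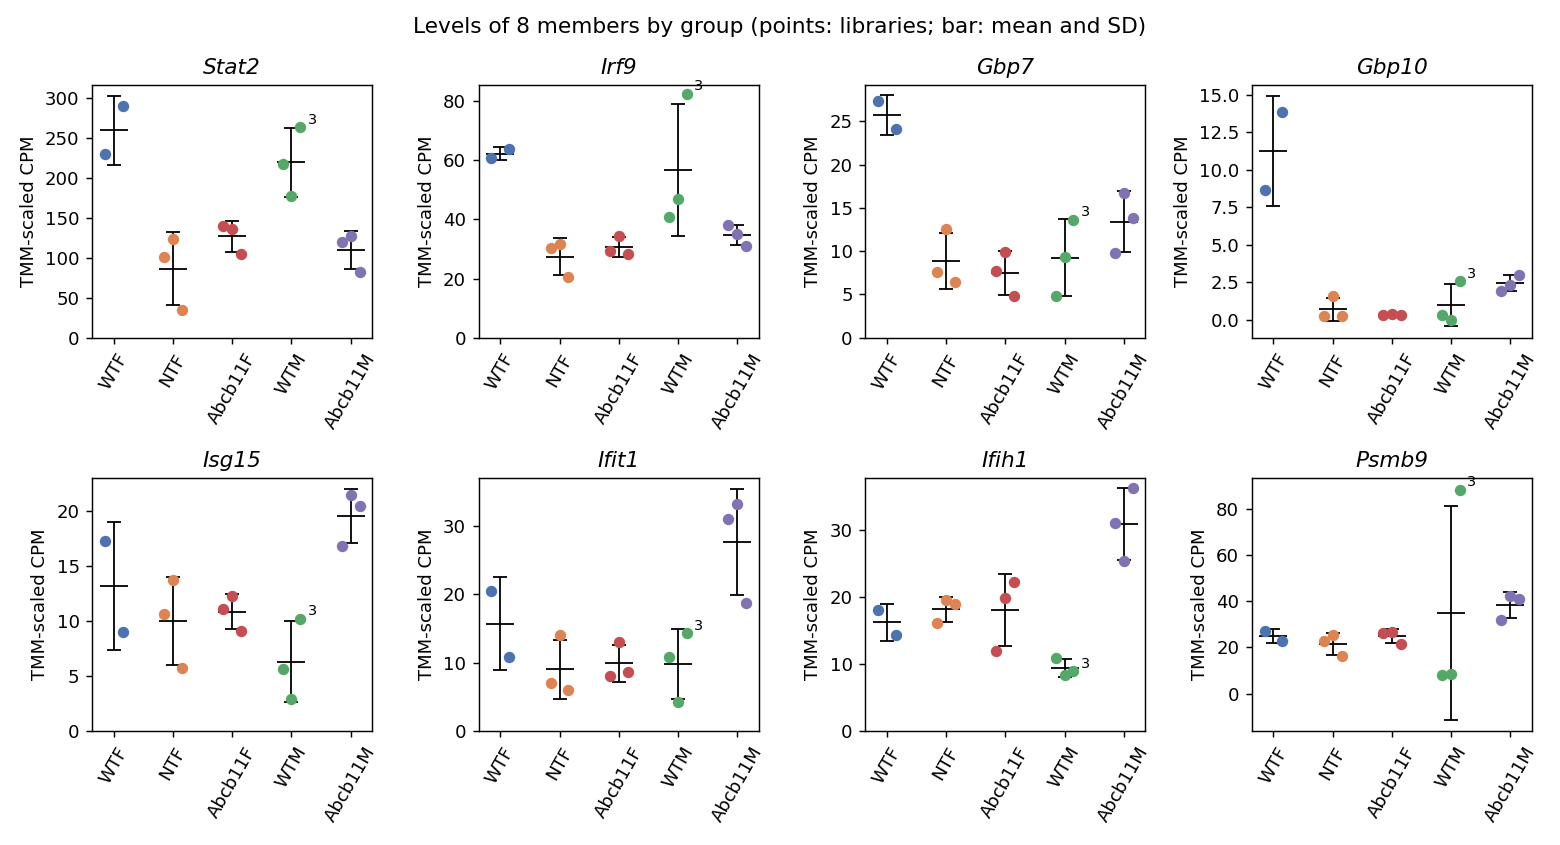
TMM-scaled CPM (vertical axis) of 8 members in the 5 groups (horizontal axis), with a point for each library, a bar for the mean and error bars for the SD, and WTM 3 marked. Stat2, Irf9, Gbp7 and Gbp10 are highest in WTF or in wild type, Isg15, Ifit1 and Ifih1 are highest in Abcb11M, and for Psmb9 WTM 3 is at 88.5 CPM against 8.09 and 8.52.

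Non-tumour knockout liver was compared with wild-type liver in F to ask what loss of Abcb11 does outside the tumour. Members of the signalling complex and 1 guanylate-binding gene were lower in NTF than in WTF. Irf9 had a log2 fold change of −1.18 ± 0.28 (SE, as in all fold changes here; edgeR adjusted p = 0.0303), Stat2 of −1.59 ± 0.40 (adjusted p = 0.0374) and Gbp7 of −1.55 ± 0.41 (adjusted p = 0.0487). With these, 0 members were higher and 3 of 36 (8.33%) were lower at an adjusted p under 0.05, against 4.16% of all genes called, 1.9% being higher and 2.26% lower. Gbp10 had a log2 fold change of −4.02 ± 1.11 and Mx2 of −1.20 ± 0.37, with adjusted p = 0.0556 and 0.0785. The median over the members was −0.46, beside 0.00 over all genes, and 27 of 36 were below 0, beside 50% of all genes. The libraries did not overlap in 14 members, all lower in NTF, beside 26.5% of all genes lower and 23.2% higher without overlap. The calls depended on single libraries: 0 members passed without WTF 2, WTF 3, NTF 1 or NTF 3, and 5 without NTF 2. With the replicate number as a block only Gbp7 passed, Irf9 and Stat2 being lost. Wherever wild type is compared with knockout, here and below, this block joins different mice by number alone. In a fit of NTF and WTF alone 6 members passed, all lower: Stat2 was lost, and Gbp10, Gbp6, Igtp and Mx2 were added. Of all genes 1061 were called in that fit, against 743 in the fit of 14 libraries. The log2 fold changes with 1 library left out stayed between −1.30 and −0.96 for Irf9, between −1.93 and −1.17 for Stat2 and between −1.88 and −1.32 for Gbp7. Macrophage markers moved with this comparison: 3 of 12 were higher (Csf1r, C1qa and Cd5l), and their summed level was 139.8 to 163 CPM in WTF and 334 to 619 in NTF. Of 5 cholangiocyte markers 0 were called, and their summed level was 132 to 277 CPM in WTF and 415 to 558 in NTF. Most of it was Spp1 (112 to 248 CPM in WTF and 354 to 488 in NTF). The part of these cells in the result was not tested.

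Tumour tissue was compared with the same WTF libraries, so the 2 comparisons share their controls. Gbp10 and Gbp7 had the smallest p of the members. Gbp10 had a log2 fold change of −5.05 ± 1.17 (edgeR adjusted p = 0.0168), Gbp7 of −1.78 ± 0.42 (adjusted p = 0.0171), Irf9 of −1.02 ± 0.28 (adjusted p = 0.0337) and Mx2 of −1.33 ± 0.37 (adjusted p = 0.0370). Stat2, at −1.04 ± 0.39, did not pass (adjusted p = 0.107). Of the 36 members 0 were higher and 4 (11.1%) were lower, beside 9.61% of all genes called, 3.94% higher and 5.67% lower, so the share of members called was near that of all genes. Their median was −0.44, beside 0.03 for all genes. The libraries did not overlap in 16 members, all lower in Abcb11F, beside 27.6% of all genes lower and 24.8% higher. Without WTF 3 or Abcb11F 3, 0 members passed, without WTF 2 only Gbp10 did, without Abcb11F 2 only Gbp7, and without Abcb11F 1 all but Irf9. Under the replicate block Irf9 and Mx2 were lost. In a fit of Abcb11F and WTF alone 8 members passed, all lower, with Gbp3, Gbp6, Igtp and Stat2 added. Of all genes 2489 were called in that fit, against 1718 in the fit of 14 libraries. Cholangiocyte markers moved with this comparison, 3 of 5 being higher, with a summed level of 132 to 277 CPM in WTF and 658 to 1341 in Abcb11F. Most of that sum was Spp1 (112 to 248 CPM in WTF and 609 to 1269 in Abcb11F), while Sox9 overlapped between the groups. Macrophage markers had 2 of 12 higher (139.8 to 163 CPM against 338 to 495), and endothelial markers 2 of 7 (103 to 115 CPM against 131 to 174). The part of these cells in the result was not tested.

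Tumour and non-tumour knockout tissue were compared directly. Of the members 0 passed in edgeR, 0 were under an unadjusted p of 0.05 and 0 passed in DESeq2. In edgeR 0% of all genes were called, and 6.81% were under an unadjusted p of 0.05. The members' log2 fold changes ran from −1.28 for Cxcl10 to 0.55 for Stat2, with a median of 0.08. Cxcl10 was the 1 member whose libraries did not overlap, lower in Abcb11F, beside 7.64% of all genes lower and 6.38% higher. Blocking on the replicate number, by which these libraries were read as paired, left the count at 0.

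Knockout and wild-type liver were then compared in M. With TMM scaling the members that passed were a sensor and antiviral effectors, all higher in Abcb11M. Ifih1 had a log2 fold change of 1.72 ± 0.25 (edgeR adjusted p = 0.000461), Oasl1 of 1.48 ± 0.37 (adjusted p = 0.0116), Isg15 of 1.63 ± 0.41 (adjusted p = 0.0124) and Mx1 of 1.67 ± 0.45 (adjusted p = 0.0169). Ifit3 followed at 1.21 ± 0.34 (edgeR adjusted p = 0.0218), Ifit1 at 1.49 ± 0.43 (adjusted p = 0.0252) and Rsad2 at 1.27 ± 0.43 (adjusted p = 0.0474). The 7 are 19.4% of the 36 members, beside 20.6% of all genes called, 14.3% higher and 6.32% lower, so their share was near that of all genes. Stat2 and Irf9 lay on the other side, at −1.0003 ± 0.36 and −0.71 ± 0.25 (edgeR adjusted p = 0.0626 and 0.0601), and both were called lower with RLE or upper-quartile scaling, no filter, 1 CPM in 3 libraries and DESeq2. Under the first 4 of these Rsad2 was not called. DESeq2 also called Oas1a lower, and the fit with no filter Irf8 and Tap1. In a fit of Abcb11M and WTM alone 3 members passed: Ifih1 and Isg15, higher, and Stat2, lower. TMM scaling leaves the median of all genes at 0.11 in this comparison, RLE scaling at 0.00. The members' median was 0.24 with TMM. The libraries did not overlap in 9 higher and 4 lower members, beside 23.1% and 12.2% of all genes. Without WTM 1, 4 members passed, Irf9 among them as lower, without Abcb11M 1, 3 did, and with each of the other libraries but WTM 3 left out, 5 or 6, with Irf9 and Irf8 lower among the 6 without WTM 2. Whichever library was left out, Ifih1, Isg15 and Oasl1 passed. Endothelial markers moved with this comparison, 3 of 7 being lower (summed level 128 to 208 CPM in WTM and 84.9 to 108 in Abcb11M). The summed level of 5 neutrophil markers was 34.1 to 48.4 CPM in WTM and 8.93 to 19.6 in Abcb11M, with 0 called. Of 12 macrophage markers 2 were higher and of 5 cholangiocyte markers 1 was lower. The part of these cells was not tested.

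Without WTM 3 the comparison in M took another form. Then 14 of 36 members (38.9%) were called, all higher, beside 23% of all genes called, 14.6% higher and 8.39% lower, and the members' median was 0.88. The libraries then did not overlap in 24 higher and 4 lower members, beside 32.9% and 16.9% of all genes. Rsad2 was no longer called, and Cxcl10, Ddx58, Gbp10, Igtp, Irf1, Irgm1, Psmb8 and Psmb9 were added. Psmb8 went from 0.0058, a value that took either sign with the setting, to 0.85 (edgeR adjusted p = 0.0288). Psmb9 went from 0.13 ± 0.71 (edgeR adjusted p = 0.920) to 2.09 (adjusted p = 0.000214), and Igtp from 0.25 ± 0.54 (adjusted p = 0.780) to 1.33 (adjusted p = 0.0191). Cxcl10 went from −0.44 ± 1.14 (edgeR adjusted p = 0.821) to 3.21 (adjusted p = 0.0257), and Gbp10 from 1.29 ± 0.98 (adjusted p = 0.378) to 3.69 (adjusted p = 0.0193). These rest on WTM 1 and WTM 2 with 0 and 11 counts for Cxcl10 and 5 and 0 for Gbp10. Stat2 and Irf9 stayed below 0, at −0.97 and −0.46, and were not called (edgeR adjusted p = 0.0870 and 0.142). The other scalings and filters and DESeq2, which called both lower, were run only with WTM 3. The sign of the fold change turned in 6 of 36 members. Removing WTM 1 or WTM 2 instead turned Psmb9 to −0.38 or −0.37 and Igtp to −0.05 or −0.25. Markers moved too when WTM 3 was left out. Of T and NK cell markers 4 of 10 were higher, of dendritic cell markers 3 of 7, of macrophage markers 4 of 12 and of B cell markers 1 of 4. Of endothelial markers 4 of 7 were lower, and of cholangiocyte markers 1 of 5. The part of these cells in the 14 calls was not tested.

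**Figure D3:**
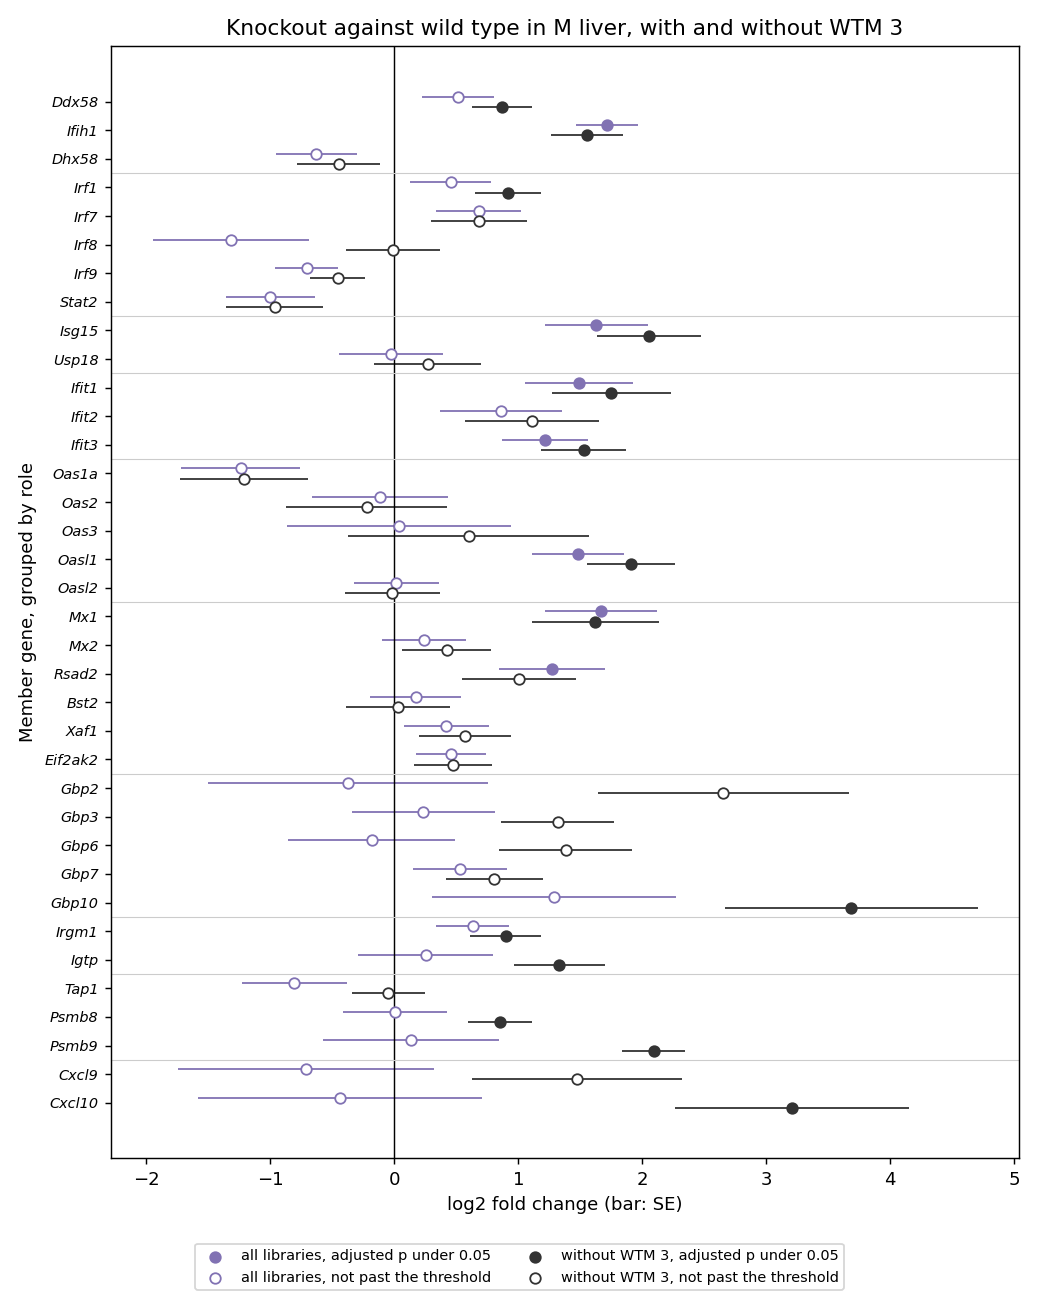
Log2 fold change of Abcb11M over WTM (horizontal axis, bars show the SE) for each member (vertical axis), with all libraries and without WTM 3, filled where the edgeR adjusted p is under 0.05. With all libraries 7 members are filled, and without WTM 3, 14 are, among them Psmb9 at 2.09.

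**Figure D4:**
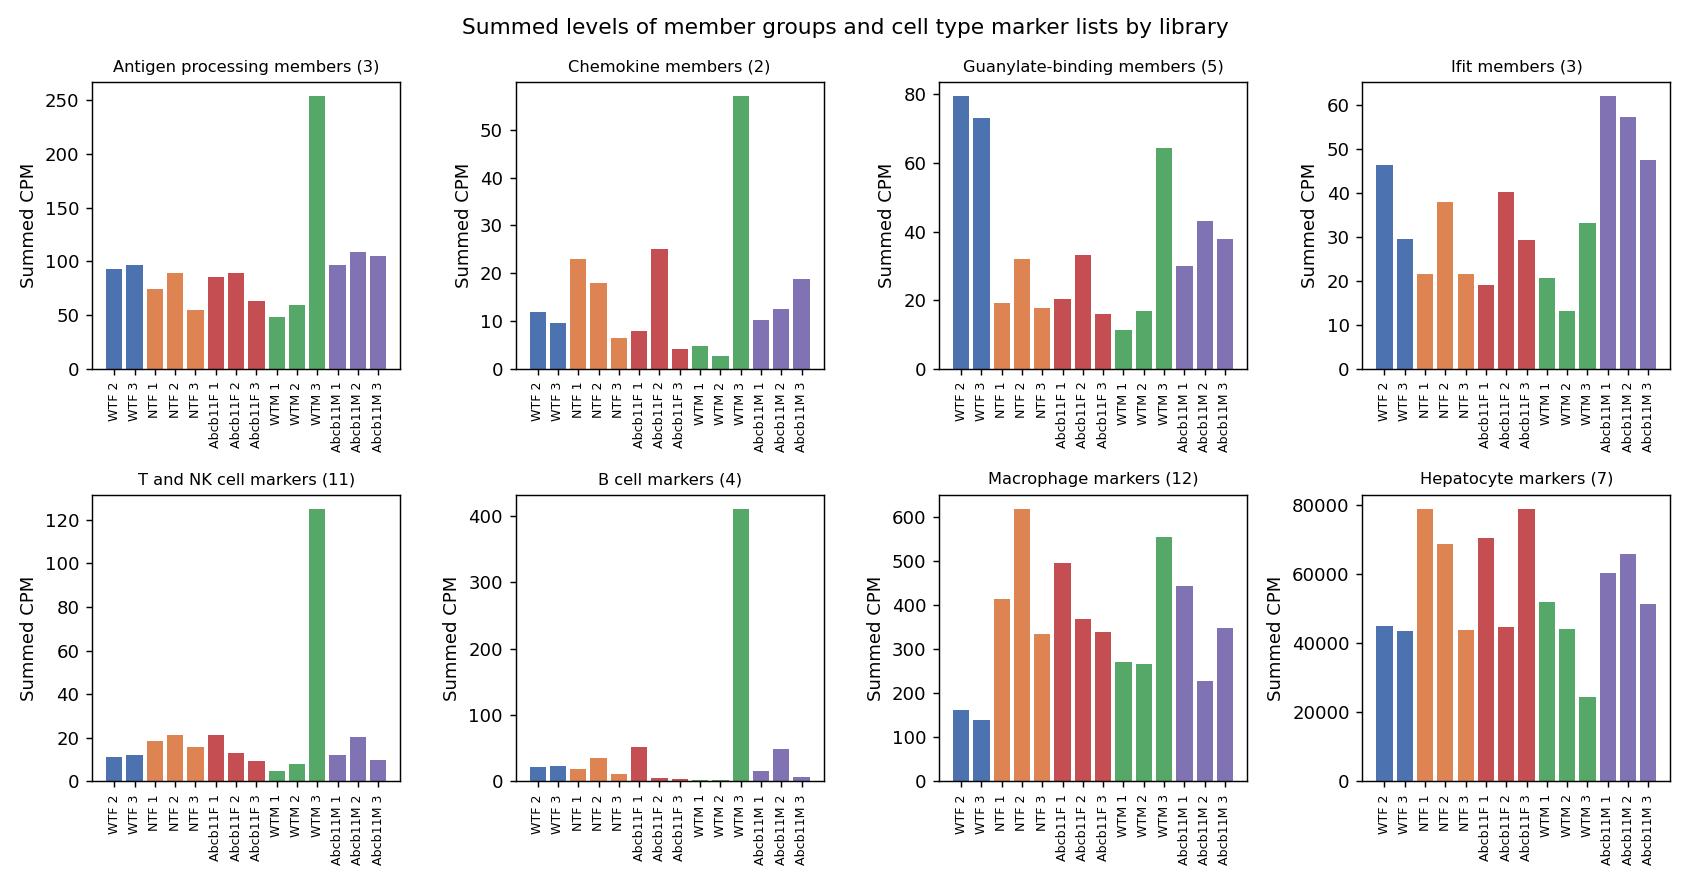
Summed CPM (vertical axis, linear, from 0) of 4 member groups and 4 cell type marker lists in each of the 14 libraries (horizontal axis), with the number of genes in brackets. WTM 3 has the tallest bar for antigen processing, chemokines, T and NK cells (125 CPM) and B cells (411 CPM), while the Ifit genes are highest in Abcb11M.

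The difference of the knockout effect between F (NTF over WTF) and M (Abcb11M over WTM) was tested as an interaction, which uses the same libraries as both comparisons above. For 8 of 36 members (22.2%) the effect was lower in F than in M, and for 0 it was higher, beside 10.9% of all genes called, 2.2% higher and 8.68% lower. The differences in log2 fold change were −1.55 for Ifih1, −2.47 for Rsad2, −2.49 for Mx1, −2.08 for Gbp7, −1.84 for Ifit3, −5.31 for Gbp10, −2.29 for Ifit1 and −2.03 for Isg15, with edgeR adjusted p from 0.0151 (Ifih1) to 0.0429 (Isg15). The members' median was −0.79, beside −0.07 for all genes with TMM and 0.05 with RLE scaling. Irf9 and Stat2, with fold changes below 0 in both sexes, showed differences of −0.47 ± 0.38 and −0.59 ± 0.53. Without WTM 3 the count was 17 (47.2%), all lower, beside 14.8% of all genes called, 4.93% higher and 9.87% lower, with a median of −1.29. The 8 differences were then −1.34 for Ifih1, −2.15 for Rsad2, −2.40 for Mx1, −2.31 for Gbp7, −2.11 for Ifit3, −7.67 for Gbp10, −2.503 for Ifit1 and −2.41 for Isg15. Isg15 was lost with RLE or upper-quartile scaling, Isg15 and Gbp10 in the compared groups alone, and Mx1 and Rsad2 under the replicate block. The count was 0 without WTF 2, WTF 3 or NTF 1, 1 (Ifih1) without NTF 3, 2 without WTM 1, 4 without WTM 2 or Abcb11M 3, and 3 without Abcb11M 1 or Abcb11M 2. Markers moved with this difference too, 2 of 12 for macrophages, 1 of 7 for endothelium and 1 of 5 for cholangiocytes being higher. Without WTM 3, 2 of 12 macrophage, 3 of 7 endothelial and 2 of 5 cholangiocyte markers were higher. Of dendritic cell markers 2 of 7 were then lower, and of B cell markers 1 of 4. The part of these cells was not tested.

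**Figure D5:**
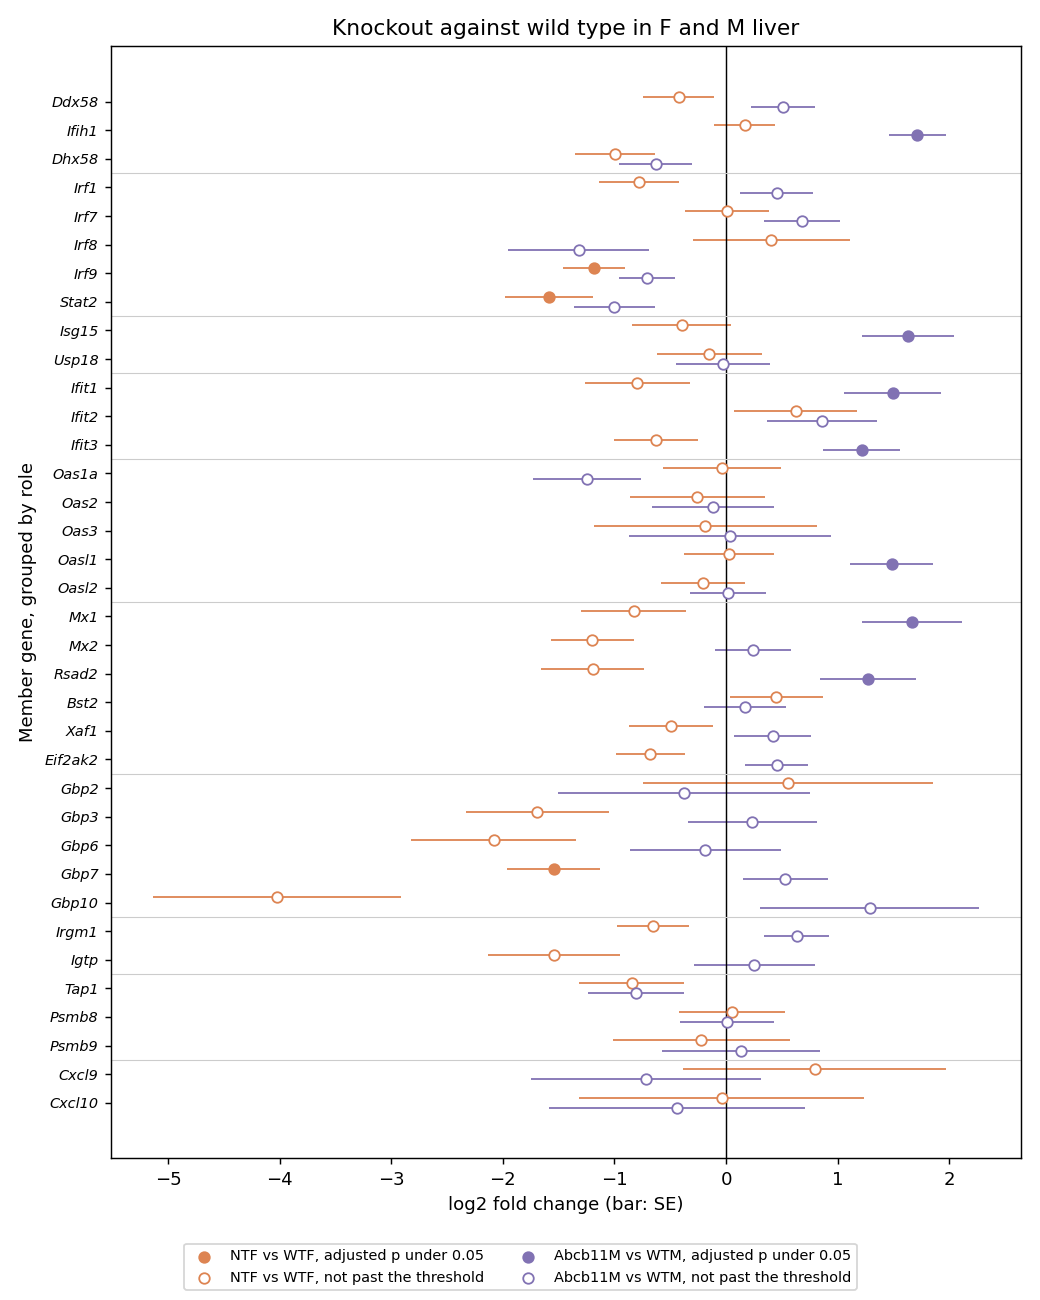
Log2 fold change of knockout over wild type (horizontal axis, bars show the SE) for each member (vertical axis) in F (NTF over WTF) and in M (Abcb11M over WTM), filled where the edgeR adjusted p is under 0.05. The 3 filled F points lie left of 0 and the 7 filled M points right of it, and for Stat2 and Irf9 both points lie left of 0.

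Wild-type livers of the 2 sexes, which are the controls above, were compared as well. Mx1 was lower in WTM by a log2 fold change of −2.47 ± 0.49 (edgeR adjusted p = 0.00279), Gbp7 by −1.47 ± 0.41 (adjusted p = 0.0197), Gbp10 by −3.50 ± 1.09 (adjusted p = 0.0312) and Ifih1 by −0.78 ± 0.27 (adjusted p = 0.0496). These 4 of 36 (11.1%) compare with 23.1% of all genes called, 7.03% higher and 16.1% lower. The median of the members was −0.65, beside −0.12 for all genes with TMM and −0.01 with RLE scaling. The call of Ifih1 was lost under every alternative run (edgeR or DESeq2 adjusted p from 0.0704 to 0.271). The libraries did not overlap in 12 members lower in WTM, beside 31.5% of all genes, and in Oas1a, which was higher, beside 17.5%. Without WTM 3 the count was 15 (41.7%), all lower, beside 27.1% of all genes called, 10.2% higher and 16.9% lower, with a median of −0.92. Ifih1 was not among the 15, and Gbp10 was then at −5.88, Mx1 at −2.41 and Gbp7 at −1.73. The libraries did not overlap in 28 lower members and 1 higher, beside 41.8% and 23.2% of all genes. Without WTF 2, WTF 3 or WTM 1, Mx1 was the 1 member called, and it passed with each library left out. Marker sums moved here as well: that of macrophages was 139.8 to 163 CPM in WTF and 267 to 554 in WTM (1 of 12 higher), and that of endothelium 103 to 115 and 128 to 208 (2 of 7 higher). The sum of neutrophil markers was 11.7 to 15.7 CPM in WTF and 34.1 to 48.4 in WTM (0 called). That of cholangiocyte markers was 132 to 277 and 57.3 to 83.7 (1 of 5 lower), again mostly Spp1 (112 to 248 and 40.2 to 60.1 CPM). Without WTM 3, 3 of 10 T and NK cell, 3 of 7 dendritic cell and 1 of 4 B cell markers were lower in WTM. Of endothelial markers 4 of 7 were then higher, of macrophage markers 1 of 12, and 0 cholangiocyte markers were called. Their part was not tested.

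The other 111 genes of the pathway lists hold the signals and machinery around the members. Of the 14 ligands and inducing cytokines, 8 had 0 counts in all libraries, and Ifnb1 had 5 counts in 1 library. Ifng, the type II interferon, had 44 counts in all, with 28 of them in WTM 3 and 0 in WTM 1 and WTM 2. Il18, an inducer of Ifng, was the 1 ligand that could be tested. It stood at 2.13, 3.36 and 6.66 CPM in WTM and 15.4, 9.36 and 10.9 in Abcb11M, a log2 fold change of 1.54 ± 0.37 (edgeR adjusted p = 0.00904), not called in a fit of the compared groups alone and at 1.99 (adjusted p = 0.00153) without WTM 3. Of the 92 genes tested, 0 rose and 6 fell in NTF against WTF, 1 rose and 5 fell in Abcb11F against WTF, and 15 rose and 5 fell in Abcb11M against WTM. These are 6.52%, 6.52% and 21.7% of the 92, beside 4.16%, 9.61% and 20.6% of all genes. Without WTM 3, 21 rose and 5 fell in M (28.3%, beside 23% of all genes).

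Among the 9 receptors and kinases, Ifnar2, a chain of the type I receptor, rose in Abcb11M (0.66 ± 0.20, edgeR adjusted p = 0.0272, not called without WTM 1, WTM 2, WTM 3 or Abcb11M 3), and 0 passed in either F comparison. Among 9 further signalling factors and brakes, Pias1, an inhibitor of STAT signalling, fell in Abcb11F (−0.76 ± 0.21, edgeR adjusted p = 0.0336), and it lost the call without any 1 of the 5 libraries compared.

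Among 13 tested genes of nucleic acid sensing, 2 rose and 2 fell in M (3 and 1 without WTM 3) and 1 fell in NTF. Tlr3, the endosomal receptor of double-stranded RNA, stood at 2.78, 2.15 and 1.87 CPM in WTM and 14.4, 11.6 and 7.01 in Abcb11M. Its log2 fold change of 2.28 ± 0.39 (edgeR adjusted p = 0.00116) was called under every alternative run. Ikbke, a kinase that activates IRF3, rose in M by 1.08 ± 0.29 (edgeR adjusted p = 0.0152; not called without WTM 1, WTM 2 or Abcb11M 1). Adar, which edits double-stranded RNA, fell in NTF by a log2 fold change of −1.09 ± 0.25 (edgeR adjusted p = 0.0276), a call that held without NTF 2 and with none of the other 4 libraries left out.

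Among 11 other guanylate-binding and immunity-related GTPases, 2 fell in each F comparison and 2 rose in M. Gbp11 stood at 42.1 and 46.4 CPM in WTF, 5.67, 24.8 and 7.82 in NTF, 10.1, 12.4 and 4.97 in Abcb11F, 1.49, 4.01 and 9.08 in WTM and 104, 153 and 68.1 in Abcb11M. Its log2 fold change in M was 4.46 ± 0.72 (edgeR adjusted p = 0.00142), called under every alternative run. Iigp1, an effector that opens parasite vacuoles, stood at 272 and 241 CPM in WTF, 124, 141 and 100.3 in NTF, 89.1, 104 and 88.5 in Abcb11F, 161, 113 and 172 in WTM and 233, 268 and 265 in Abcb11M. It fell in NTF (−1.07 ± 0.25, edgeR adjusted p = 0.0296) and in Abcb11F (−1.45 ± 0.25, adjusted p = 0.00364) and rose in M (0.78 ± 0.23, adjusted p = 0.0252), and the call in Abcb11F held under every alternative run. The call in NTF was lost without WTF 2, WTF 3, NTF 1 or NTF 3, and that in M without WTM 1, WTM 2, Abcb11M 2 or Abcb11M 3 and with RLE scaling. Irgm2 stood at 51.5 and 57.2 CPM in WTF, 13.1, 15.8 and 12.8 in NTF, 13.7, 12.6 and 7.40 in Abcb11F, 9.64, 17.2 and 22.5 in WTM and 15.2, 20.2 and 23.2 in Abcb11M. It fell in NTF (−1.96 ± 0.33, edgeR adjusted p = 0.00806, lost without WTF 3) and in Abcb11F (−2.28 ± 0.33, adjusted p = 0.00115, held under every alternative run).

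Of 8 further genes of antigen processing, 3 rose in M (5 without WTM 3) and 0 passed in F. B2m, the light chain of class I molecules, stood at 1250.0, 1110.0 and 1388 CPM in WTM and 2746, 2741 and 2616 in Abcb11M, a log2 fold change of 1.11 ± 0.31 (edgeR adjusted p = 0.0210; not called without WTM 1, WTM 2 or Abcb11M 1). H2-K1, a class I heavy chain with similar relatives, changed by 0.87 ± 0.26 and Tapbp, which loads peptides, by 0.82 ± 0.26 (edgeR adjusted p = 0.0270 and 0.0350), and both calls were lost with RLE scaling and without WTM 1, WTM 2, Abcb11M 1 or Abcb11M 3, and that of H2-K1 also without Abcb11M 2. Of 41 other induced genes tested, 6 rose and 3 fell in M (22%, beside 20.6% of all genes), and 8 rose and 3 fell without WTM 3. Parp12, an ADP-ribosyltransferase, rose by 1.90 ± 0.33 (edgeR adjusted p = 0.00136) and Ifi27l2b by 1.94 ± 0.35 (adjusted p = 0.00165), each called under every alternative run. Ifi27l2b also rose in Abcb11F (2.28 ± 0.41, edgeR adjusted p = 0.00444, lost without WTF 3). Rtp4, a chaperone induced by type I interferon, fell in NTF (−1.37 ± 0.28, edgeR adjusted p = 0.0183) and in Abcb11F (−1.06 ± 0.28, adjusted p = 0.0267), and neither call held without WTF 2 or WTF 3, nor the first without NTF 1 or NTF 3, nor the second without Abcb11F 3.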

How the data were processed

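Liver RNA of 5 groups was sequenced on an Illumina HiSeq, per the labels, aligned to GRCm38 with HISAT2 2.0.5 and counted with featureCounts 1.5.0-p3, per the submitters' processing notes. The deposited table holds counts as whole numbers per gene and, beside them, FPKM values made by the authors. FPKM was used only to compare levels between genes. The strand setting is not given in the sources used here.

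Counts were scaled by TMM, filtered (filterByExpr) and tested by a 2-sided quasi-likelihood test with robust dispersion in edgeR 4.0.16 (R 4.3.3), in 1 fit of 14 libraries with 6 contrasts, adjusted by Benjamini-Hochberg over 17874 genes at 0.05. The SE is the fold change over the square root of F. The coefficient of biological variation common to all genes was 0.442. The p-values measure the spread between these libraries. Results were recomputed with upper-quartile or RLE scaling, without the filter, with 1 CPM in 3 libraries, in DESeq2 1.42.0, from only the groups compared, with a block for the replicate number, and with each library, or both F knockout libraries numbered 1, left out. In data simulated for NTF against WTF over 17874 genes, 49% of 4-fold and 2% of 2-fold changes were recovered, and for Abcb11M against WTM 62% and 13%.

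The labels do not say what equal numbers mark. Same-numbered NTF and Abcb11F libraries deviated together (r = 0.489, 0.418 and 0.308 over 8445 genes) and were read as paired. Those of different numbers ran from −0.419 to 0.0578. WTM 3 and Abcb11M 2, which are different mice, reached 0.379, so such values do not settle the pairing. Members and lists were chosen with earlier results of these data known. Values in every library are given for members past the threshold in any comparison and for each role's member with the highest mean FPKM. Pathway genes are up to 3 per list with the smallest p and the ligands. Psmb9 and Cxcl10 were named after their values were seen. So were the members not past the threshold that carry a p, or that a left-out library or another setting adds. Of the pathway genes that the rule names, those without a call are not described, and 1 gene of the lists is not reported here.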

Additional observations from a re-analysis of the deposited data

Results flagged for a closer look

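The knockout effect differed between F and M in 8 of 36 members, beside 10.9% of all genes called, 2.2% higher and 8.68% lower. The test was of the difference itself, F (NTF minus WTF) minus M (Abcb11M minus WTM), on the log2 scale. For Ifih1 the difference was −1.55 and for Rsad2 −2.47. The 2 largest differences among antiviral effectors and guanylate-binding genes were −2.49 for Mx1 and −5.31 for Gbp10, the last on few counts. Gbp7 differed by −2.08, Isg15 by −2.03, Ifit3 by −1.84 and Ifit1 by −2.29. WTM 3, the library with high B and T cell markers, is among the controls of this difference. Without it all 8 were still called, among 17 members (47.2%), beside 14.8% of all genes. Of the 8, 0 were called without WTF 2, WTF 3 or NTF 1, 1 without NTF 3 and 2 without WTM 1. RLE scaling lost Isg15, and the replicate block lost Mx1 and Rsad2.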

How the results depend on the processing

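The number of members called changed with the setting as follows. Without a low-count filter it was 7 in NTF against WTF, 9 in Abcb11F against WTF, 13 in the difference between F and M and 9 in WTM against WTF. Of the 13, and of the 9 in WTM against WTF, 2 each were higher. The number over all genes rose as well, from 743 to 1739, 1718 to 2516, 1945 to 2815 and 4137 to 4634. In a fit of the compared groups alone 6 members were called in NTF against WTF, with Stat2 lost and Gbp10, Gbp6, Igtp and Mx2 gained. In Abcb11F against WTF 8 were, with Gbp3, Gbp6, Igtp and Stat2 gained. In M 3 were (Ifih1, Isg15 and, lower, Stat2), and in WTM against WTF 1 was. The numbers over all genes were 1061, 2489, 2262 and 1824. In M this fit lost Ifit1, Ifit3, Mx1, Oasl1 and Rsad2. With DESeq2, 6 members were called in NTF against WTF, beside 1942 of all genes. Without both F knockout libraries numbered 1 the count was 0 in NTF against WTF, 1 in Abcb11F against WTF and 1 in the difference, beside 235, 1148 and 990 of all genes. The replicate block gave 1 in NTF against WTF (Gbp7, beside 225 of all genes), 2 in Abcb11F against WTF (Gbp7 and Gbp10, beside 1018) and a members' median of 0.60 in M. It turned Cxcl10 to 1.53 in M, and changed no member's call in Abcb11F against NTF. Same-numbered libraries of WTF and NTF (r = −0.248 and −0.118) and of WTM and Abcb11M (−0.0323, −0.205 and −0.291) share only a number.

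With 1 library left out in turn, the number called ran from 0 to 5 in NTF against WTF, 0 to 3 in Abcb11F against WTF, 3 to 14 in M, 0 to 17 in the difference and 1 to 15 in WTM against WTF. The medians ran from −0.013 to 0.88 in M and from −1.29 to −0.37 in the difference. In M the log2 fold change ran from −0.38 to 2.09 for Psmb9, −0.25 to 1.33 for Igtp and −1.06 to 3.21 for Cxcl10. Psmb8 in M, at 0.0058 with all libraries, turned to −0.0915 with RLE, −0.0957 with upper-quartile scaling, −0.0289 without the filter, −0.0815 with 1 CPM in 3 libraries, −0.0901 with DESeq2 and −0.12 in the compared groups alone, and ran from −0.41 to 0.85 with 1 library left out, so that its direction was not settled by these data. The cause of these changes was not tested. With 2 or 3 libraries a group, most 2-fold changes pass unseen. Counts of 0 to 11 limit Gbp10 and Cxcl10 in WTM 1 and WTM 2.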
